A study of Mus musculus with 36 samples.

Results

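The comparison is that of Control cells 2 h and 6 h after addition of 4-hydroxytamoxifen (4-OHT) with Control cells at 0 h, which takes 9 of the 36 libraries of the series. DNA methylation was measured by reduced representation bisulfite sequencing (RRBS) in B3, a mouse pre-B cell line. Control cells were a pool of B3 cells that carried an empty MSCV retroviral vector encoding ERt2-IRES-GFP, without Ikaros, and that had been sorted for GFP. Groups of 3 replicates each were taken at 0 h, 2 h and 6 h, and the 6 libraries of 2 h and 6 h were set against the 3 of 0 h. The dose of 4-OHT was 0.5 µM. The labels give this dose for 0 h as well, while the study's methods describe the 0 h cells as free of 4-OHT and as obtained separately from the other time points, so the time point and the separate collection of the 0 h cultures cannot be told apart. The Ikaros series, B3 cells with an inducible HA-Ikaros-ERt2 fusion given the same agent, was used only to sort clusters by starting level and to set a second series beside the first.

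Methylation of cytosine in CG dinucleotides (CpGs) is copied to the new strand by DNMT1 after replication and can be set anew by DNMT3A and DNMT3B, while TET enzymes oxidise it towards removal. In most mammalian cells the CpG-rich starts of active genes are nearly free of methylation, and the rest of the genome is largely methylated. 4-OHT is a ligand of the estrogen receptor that brings proteins fused to the mutant receptor domain ERt2 into the nucleus, and empty-vector cells serve to show what the ligand and the handling do by themselves.

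RRBS cuts the genome with MspI at CCGG, so the positions measured cluster around such sites. A CpG cluster was taken as a run of listed positions at most 100 bp apart, and its level was the mean of the deposited smoothed levels over the positions with a value in all 9 libraries. Of 18009 clusters, 17009 had at least 1 such position, with a median of 41. The sequences of 5 clusters are shown first, because they are among those with the smallest p-values in each direction and show how CpGs lie in them. They were read from RefSeq GRCm38.p6 on the forward strand, with each CG in capitals. The cluster at Spata13 (chr14:60691065-60691275) lay in coding sequence, the one at Dusp4 (chr8:34810009-34810243) in an intron, the one at Neurog2 (chr3:127633808-127633905) in coding sequence, the one at Slc31a2 (chr4:62286584-62286845) beside its transcription start, and of the cluster at Dab2ip the part before the first exon is given (chr2:35661187-35661349).
Spata13: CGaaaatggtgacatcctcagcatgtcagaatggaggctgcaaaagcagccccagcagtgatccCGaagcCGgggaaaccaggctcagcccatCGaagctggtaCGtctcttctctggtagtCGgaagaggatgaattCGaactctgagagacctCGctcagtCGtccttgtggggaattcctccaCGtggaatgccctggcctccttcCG
Dusp4: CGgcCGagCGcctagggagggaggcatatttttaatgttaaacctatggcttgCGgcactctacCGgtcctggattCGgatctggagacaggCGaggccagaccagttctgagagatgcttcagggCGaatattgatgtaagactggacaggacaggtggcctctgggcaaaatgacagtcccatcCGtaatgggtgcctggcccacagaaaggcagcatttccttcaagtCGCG
Neurog2: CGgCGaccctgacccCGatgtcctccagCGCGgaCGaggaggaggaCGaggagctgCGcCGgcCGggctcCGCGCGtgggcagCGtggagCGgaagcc
Slc31a2: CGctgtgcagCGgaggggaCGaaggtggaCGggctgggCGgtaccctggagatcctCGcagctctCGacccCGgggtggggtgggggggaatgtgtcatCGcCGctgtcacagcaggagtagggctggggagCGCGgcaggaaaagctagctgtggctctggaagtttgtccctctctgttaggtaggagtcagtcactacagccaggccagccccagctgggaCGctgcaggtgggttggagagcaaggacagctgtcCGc
Dab2ip: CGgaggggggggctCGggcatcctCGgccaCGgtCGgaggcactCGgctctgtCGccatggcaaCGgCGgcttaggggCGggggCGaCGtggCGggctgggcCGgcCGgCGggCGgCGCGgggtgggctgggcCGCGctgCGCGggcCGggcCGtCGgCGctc
The stretch at Dab2ip held 27 CGs in 163 bp, 3 of them in a CCGG, and had a GC content of 82.8%. The cluster at Dusp4 held 11 CGs in 235 bp and the one at Spata13 held 11 in 211 bp, each with 1 CCGG. Both strands of a CG are listed separately. Values were complete in the 9 libraries at 12 of the 20 positions listed at Spata13 and at 18 of 21 at Slc31a2, and at all 20 at Dusp4, all 29 at Neurog2 and all 105 in the whole cluster at Dab2ip.

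The number of reads behind each level is not known from these values. Control 0 h replicate 1 stood apart, with 11.6% of all listed positions empty, followed by Control 0 h replicate 3 with 5.41%, while the other 7 libraries had 0.121% to 2.79% empty. Its levels lay a mean of 1.89 percentage points from the median of the 9 libraries, against 0.847 to 1.32 for the others. Median correlations between the cluster levels of a library and those of the other 8 ranged from 0.992, for Control 0 h replicate 1, to 0.998. Only methylation was measured, so the cell type could be checked only by the state of gene starts. In all 9 libraries, the clusters at the starts of the B lineage genes Pax5, Ebf1, Vpreb1 (shared with the start of Top3b) and Tcf3 had levels of at most 1.35%. The other two B lineage genes with a cluster differed from these, since the 3 clusters at the upstream start of Ikzf1 were at 96.0% or more and the cluster at Ikzf3 was at 19.4% to 28%. Markers of other lineages were methylated to different degrees. The lowest levels in any library were 93.3% at Cebpa, a myeloid factor, 95.2% at Myod1, a muscle factor, 88.5% at the muscle gene Des and 90% at Epor, the erythropoietin receptor. Levels were 37.5% to 48.9% at Lck and 41.5% to 44.0% at Tcf7, both of T cells, from 4.70% to 99.7% over 3 clusters of the T cell factor Gata3, and at most 7.05% at the erythroid factor Klf1. The state of gene starts thus did not separate the B lineage from all other lineages. Of 16 B lineage markers, 10 had no cluster within 1000 bp of a start, Cd79a and Cd79b among them.

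No CpG cluster passed the test for a difference between the later times and 0 h. With limma on the cluster levels and Benjamini-Hochberg adjustment, 0 of 17009 clusters passed an adjusted p of 0.05 (0% of those tested), and the smallest adjusted p was 0.806. At an unadjusted p under 0.05 there were 1031 clusters (6.06%). Of these, 308 were higher at 2 h and 6 h (1.81% of those tested) and 723 were lower (4.25%). In 110 clusters (0.647%) all 6 later libraries lay above all 3 of 0 h, and in 335 (1.97%) all 6 lay below. The median difference over all clusters was -0.0721 percentage points, and 56.4% of the clusters had a lower mean at 2 h and 6 h.

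The times taken singly gave the same count. For 2 h against 0 h, 0 clusters (0%) passed in limma and 742 had an unadjusted p under 0.05. For 6 h against 0 h, 0 clusters (0%) passed and 842 had an unadjusted p under 0.05. These comparisons share the 3 libraries of 0 h. For 6 h against 2 h, which share none and were harvested together within each batch, 0 clusters (0%) passed and 488 (2.87%) had an unadjusted p under 0.05. With 3 libraries a time, a missed threshold does not show that levels were equal. The half-width of the 95% interval of the difference between 2 h and 6 h and 0 h had a median of 0.519 percentage points for clusters that started under 10%, 8.24 for those of 10 to 50%, 6.82 for those of 50 to 90% and 2.07 for those over 90%.

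Starting levels were taken from the 3 Ikaros 0 h libraries, which enter neither side of the comparison. Under 10% lay 8254 clusters, from 10 to 50% 657, from 50 to 90% 1232 and over 90% 6866. Of the 13743 clusters within 1000 bp of a transcription start, called promoter clusters here, 57.6% started under 10% and 33.2% over 90%. Of the 1333 other clusters that touched coding sequence, 83.9% started over 90%, as did 61.6% of the 571 in introns and 58.3% of the 1037 between genes.

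The clusters with little methylation were lower on average in all 6 later libraries than in any of 0 h, by an amount that a design of this size can hardly show after adjustment. The mean level of the 8254 clusters that started under 10% was 0.889%, 0.918% and 0.995% in the 3 libraries of 0 h. It was 0.872%, 0.805% and 0.843% at 2 h, and 0.80%, 0.779% and 0.879% at 6 h. All 6 later libraries therefore lay below all 3 of 0 h, although Control 2 h replicate 1 and Control 6 h replicate 3 came close to the lowest of them. The mean at 0 h was 0.934% ± 0.0549 (SD, n = 3), and that of the later libraries 0.830% ± 0.0411 (SD, n = 6), a difference of -0.104 percentage points (exact permutation test, two-sided, p = 0.0238, the smallest that 84 splits can give). Adjusted over the 10 mean levels tested, the value was 0.238 (exact permutation test). A single test at the smallest p always gives that value, and an adjusted p under 0.05 would need 5 of the 10 at the smallest p, so the adjusted p says little about this difference by itself. Within batch 1 the difference was -0.0529 percentage points and within batch 4 it was -0.134, while replicate 2, whose later libraries were of batch 3 and whose 0 h library was of batch 2, gave -0.126. Without Control 0 h replicate 1 the difference was -0.127 percentage points, and 6 against 2 libraries cannot give an exact permutation p below 0.0714. The size depended on how the low clusters were chosen and summarised. With classes set by the Control 0 h libraries themselves it was -0.0656 points (exact permutation test, p = 0.119), with classes set by the mean of the 9 libraries -0.0824 (exact permutation test, p = 0.0714), and as a median over clusters, which was added after the data were seen, -0.0465 (exact permutation test, p = 0.476). Of the listed positions, 11.6%, 0.362% and 5.41% were empty in the libraries of 0 h and 0.121% to 2.79% in the later ones, and their part in the result was not tested.

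**Figure D1:**
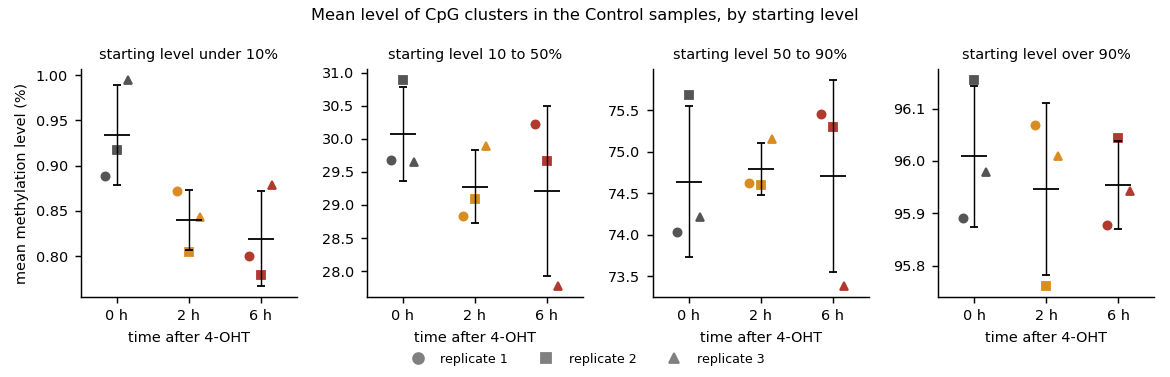
Mean methylation level (y axis, %) of the CpG clusters in 4 classes of starting level, for each Control library at 0 h, 2 h and 6 h (x axis). Symbols are libraries, the horizontal line is the mean and the bar 1 SD of 3 replicates, and each panel has its own y axis that does not start at 0. Under 10% the 6 later libraries lie from 0.779% to 0.879% and the 3 of 0 h from 0.889% to 0.995%, while in the other 3 classes the times overlap.

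In the other classes the libraries of 0 h and of the later times overlapped. Clusters that started at 10 to 50% had a mean of 30.1% ± 0.707 (SD, n = 3) at 0 h and 29.2% ± 0.883 (SD, n = 6) later (difference -0.831 percentage points, exact permutation test, adjusted p = 0.516). Those of 50 to 90% had 74.6% ± 0.907 and 74.8% ± 0.759 (difference 0.111, exact permutation test, adjusted p = 0.81). Those over 90% had 96.0% ± 0.134 and 96.0% ± 0.116 (difference -0.0581, exact permutation test, adjusted p = 0.655). Over all clusters the mean level was 45.8% ± 0.145 and 45.7% ± 0.0951 (difference -0.0981, exact permutation test, adjusted p = 0.516). The median of the differences was below 0 in each class, -0.0300 percentage points under 10%, -0.411 at 10 to 50%, -0.381 at 50 to 90% and -0.243 over 90%, so the mean and the median went opposite ways at 50 to 90%.

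By gene context no mean level differed past the threshold. Promoter clusters had 37.4% ± 0.121 (SD, n = 3) at 0 h and 37.3% ± 0.0896 (SD, n = 6) later, a difference of -0.110 percentage points (exact permutation test, adjusted p = 0.516). The difference was -0.0945 in coding exons (exact permutation test, adjusted p = 0.655), -0.0974 in other exons (adjusted p = 0.81), 0.221 in introns (adjusted p = 0.516; 0.00544 without Control 0 h replicate 1) and -0.122 between genes (adjusted p = 0.516). In introns the later libraries ranged from 75.1% to 75.6% and those of 0 h from 74.7% to 75.5%. Within batch 1 the means over all clusters and in each of these 5 contexts were higher later than at 0 h, by 0.0171 percentage points for promoters to 0.771 for introns, and within batch 4 they were lower, by values from -0.0223 for introns to -0.481 for other exons. Replicate 2, set as batch 3 against batch 2, gave lower values throughout, -0.275 over all clusters, -0.265 in promoters, -0.361 in coding exons, -0.508 in other exons, -0.0855 in introns and -0.320 between genes. Except in introns these were larger in size than the pooled differences, so time and batch cannot be told apart in them.

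Among the clusters that started under 10%, those with the least methylation and those with more were both lower on average at the later times. Clusters of 0 to under 1% (6752) had means of 0.541% and 0.45%, with Control 0 h replicate 3 at 0.614% and the other two of 0 h at 0.485% and 0.523%. Those of 1 to under 5% (1270) had 1.94% and 1.82%, and those of 5 to under 10% (232) had 6.88% and 6.46%. At 5 to under 10% Control 0 h replicate 1 was highest, at 7.18%, and Control 0 h replicate 2, at 6.54%, lay among the later libraries. At 1 to under 5% all 6 later libraries, from 1.75% to 1.87%, lay below all 3 of 0 h, from 1.89% to 1.99%, whereas at 0 to under 1% Control 2 h replicate 1 (0.508%) and Control 6 h replicate 3 (0.501%) lay above Control 0 h replicate 1 (0.485%). The share of clusters over 5% was 3.44%, 2.88% and 3.25% at 0 h and from 2.52% to 2.87% later. The share at exactly 0, in contrast, ranged from 14.0% to 24.8% at 0 h and from 10.1% to 28.6% later, and followed no time.

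The difference of the low clusters had the same sign in all 4 bins of CpG density, which split all clusters evenly, with -0.0935 percentage points in the bin with the fewest CGs per length and -0.120, -0.0976 and -0.101 in the others. In the bins with the fewest and the most CGs, Control 0 h replicate 3 was the highest library, with 1.51% and 0.829%. Control 0 h replicate 1, with 1.31% and 0.653%, lay among the later libraries there. By context it was -0.102 for the 7916 promoter clusters, -0.405 for 91 in introns, -0.218 for 41 in other exons, -0.0336 for 167 between genes and 0.0200 for 39 in coding exons. Other exons had 1.42%, 2.14% and 1.29% at 0 h against a later mean of 1.40%, so their difference rested on Control 0 h replicate 2. In introns Control 0 h replicate 1 was highest, at 2.37% against 1.91% and 1.93%. In coding exons (1.73% to 2.19% at 0 h) and between genes (1.57% to 1.85%) the times overlapped. At unadjusted p under 0.05 were 376 low clusters with a lower mean later (4.56%) and 101 with a higher one (1.22%), against 4.25% and 1.81% of all clusters. In 142 low clusters (1.72%) all 6 later libraries lay below all 3 of 0 h and in 51 (0.618%) all 6 lay above, near the 1.97% and 0.647% of all clusters.

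Later times and the other series were set beside these values without a test of time. With positions complete in all 18 Control libraries, on which the classes were formed anew, the 8196 low clusters averaged 0.931% ± 0.0475 (SD, n = 3) at the first time, 0.840% ± 0.0356 at 2 h and 0.819% ± 0.0498 at 6 h. The mean was 0.890% ± 0.118 at 12 h, where the highest library reached 1.02%, then 0.823% ± 0.0445 at 18 h and 0.753% ± 0.0147 at 24 h. The 12 h libraries overlapped those of 0 h, and the 24 h libraries, from 0.745% to 0.770%, lay below all others up to 6 h. With positions complete in the 18 Control and Ikaros libraries of 0 h, 2 h and 6 h, the classes were again formed anew, and the 8251 low clusters had in the Ikaros series 0.761%, 0.753% and 0.835% at 0 h and from 0.701% to 1.01% at 2 h and 6 h, a difference of 0.0380 percentage points against -0.102 in the Control series. The difference between the series was -0.140 percentage points (exact permutation test within each series, p = 0.0914, adjusted p = 0.656 over 10 mean levels). These classes were not those of the main comparison, with 699 clusters at 10 to 50% and 6823 over 90%, against 657 and 6866 there. The low clusters of this comparison are thus a set of their own.

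**Figure D2:**
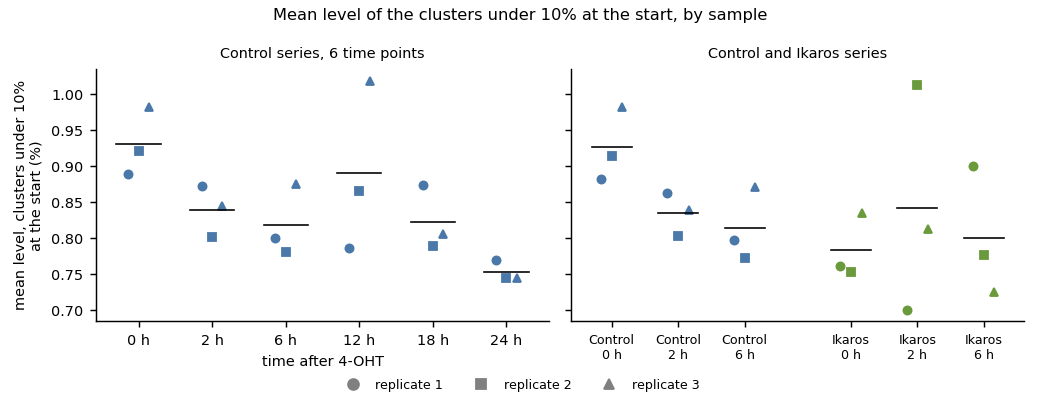
Mean methylation level (y axis, %, not from 0) of the clusters that started under 10%, 1 symbol per library, with the group mean as a line. Left, the 6 time points of the Control series, where 0 h has a mean of 0.931% and 24 h of 0.753%. Right, Control and Ikaros libraries at 0 h, 2 h and 6 h, on classes formed anew that are not those of the main comparison. Ikaros 2 h replicate 2 is the highest at 1.01%.

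Of single clusters, 361 were at least 5 percentage points higher at 2 h and 6 h (2.12%) and 291 at least 5 points lower (1.71%). Without Control 0 h replicate 1 the counts were 280 and 299, so that the larger count changed direction, without replicate 2 they were 596 and 443 and without replicate 3 they were 450 and 427. Such sizes were reached where replicates varied. They occurred in 0.291% of the clusters that started under 10%, in 24.8% and 22.2% of those at 10 to 50% and 50 to 90%, and in 2.78% of those over 90%, and the median SD of the 0 h libraries in these classes was 0.306, 4.51, 4.48 and 1.26 percentage points. By context, 3.04% of promoter clusters, 5.33% of those in coding exons, 7.36% of those in introns and 9.93% of those between genes differed by as much. By size, it was 19.3% of the clusters with fewer than 10 used positions and 0.632% of those with 100 or more. Over 90%, 150 clusters were at least 5 points higher and 41 lower, but without Control 0 h replicate 1 the counts were 96 and 35. Of all 652 such clusters, 338 (51.8%) still differed by at least 5 points in the same direction without that library.

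**Figure D3:**
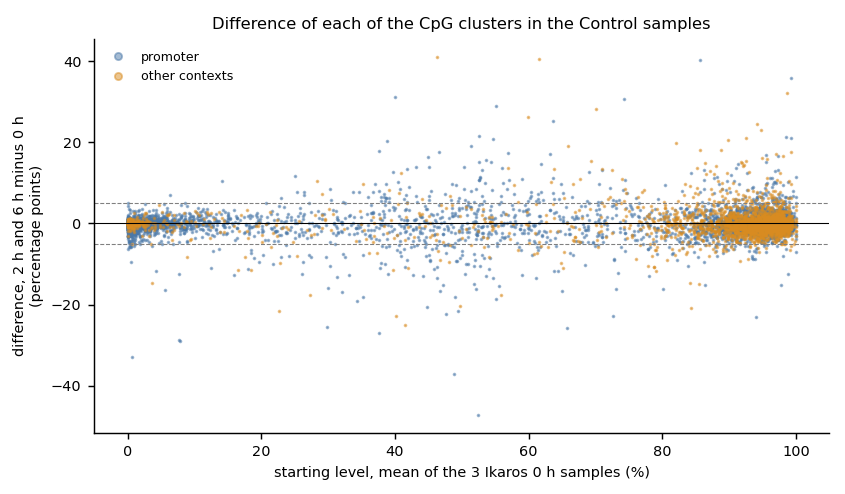
Difference in methylation level between 2 h and 6 h and 0 h in the Control libraries (y axis, percentage points) against the starting level (x axis, mean of the 3 Ikaros 0 h libraries, %), 1 point per CpG cluster, promoter clusters in blue and others in orange. Dashed lines mark 5 points in either direction, which 652 of 17009 clusters reach, mostly at starting levels between 10% and 90%.

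As no cluster passed, the 6 with the smallest p in each direction among those that differed by at least 5 points are described, and all of them had an adjusted p of 0.806 in limma. They were chosen by p and size in these same libraries, so their separation and size are partly fixed by that choice. The intervals given for them are not adjusted for it. At Spata13, levels were 0%, 18.5% and 3.03% at 0 h. They were 41.5%, 36.2% and 25.5% at 2 h and 49.3%, 40.2% and 36.7% at 6 h, so all 6 lay above all 3. By position this held at 6 of the 12 positions used. The difference was 31.1 percentage points (SE 5.52, 95% interval 18.6 to 43.5). In the Ikaros series the same cluster had a mean of 40.0% at 0 h and of 38.2% at 2 h and 6 h, which is near the later Control libraries. The Control means of 12 h, 18 h and 24 h were 42.1%, 49.7% and 35.3%.

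At Dusp4, a phosphatase that acts on MAP kinases, the intronic cluster 2712 bp from the nearest start had 9.57%, 49.9% and 0% at 0 h. It had 48.4%, 69.0% and 58.6% at 2 h and 59.4%, 64.6% and 64.6% at 6 h. Control 0 h replicate 2 lay among the later libraries while the other two of 0 h lay far below, and the difference of 41.0 points had an SE of 9.99. Without Control 0 h replicate 2 this cluster passed in limma with an adjusted p of 0.0489. The Ikaros libraries had means of 46.3% at 0 h and 54.7% later, and the Control means were 46.3% at 12 h, 33.3% at 18 h and 37.5% at 24 h.

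Neurog2 encodes a transcription factor of neuronal precursors and Tbx20 one of the developing heart. The cluster at Neurog2 had 81.6%, 86.4% and 80.9% at 0 h and from 84.9% to 97.9% later, with a median of 96.4%. Control 2 h replicate 1, at 84.9%, fell within the range of 0 h, and the Control means were 72.1% at 12 h, 80.7% at 18 h and 88.6% at 24 h. The cluster at Tbx20 (chr9:24770158-24770269) had 62.5%, 84.2% and 86.3% at 0 h and from 93.1% to 98.1% later. Control 0 h replicate 1 was the lowest there, and without it the difference fell from 17.0 to 9.38 points.

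At Adgrl1 (chr8:83938402-83938944), which encodes the adhesion receptor latrophilin 1, levels were 95.1%, 93.2% and 88.1% at 0 h and from 96.9% to 99.2% later. The difference of 5.46 points fell to 3.44 without Control 0 h replicate 3, and it was 1.92 within batch 1 and 10.3 within batch 4. The cluster near the starts of Cnih4 and Nvl (chr1:181143978-181144174), which overlapped coding sequence of Nvl, lay at genes of protein export from the endoplasmic reticulum and of ribosome assembly. It had 7.64%, 0.281% and 0.291% at 0 h and from 6.67% to 12.7% later. There Control 0 h replicate 1 lay with the later libraries, and within batch 1 the difference was -0.104 points against 10.2 within batch 4.

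Among the clusters that were lower, the one at Spr (chr6:85137427-85137851) differed most. Spr encodes sepiapterin reductase, the last enzyme of tetrahydrobiopterin synthesis. Levels were 100%, 62% and 93.9% at 0 h, 47.1%, 34.8% and 60.4% at 2 h and 31.8%, 36.2% and 18.7% at 6 h. The groups did not overlap, but Control 0 h replicate 2 and Control 2 h replicate 3 were 1.65 points apart. The difference was -47.2 points (SE 10.5, 95% interval -70.8 to -23.5). The cluster rested on 20 of 52 listed positions. The Ikaros libraries ranged there from 27.1% to 90.6% at 0 h and from 25.4% to 54.6% later.

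The 454 bp cluster at the start of Dab2ip (chr2:35661187-35661640), a gene for a Ras GTPase-activating protein, rested on 105 positions. Levels were 61.7%, 62.8% and 59.4% at 0 h, 46.4%, 49.4% and 49.4% at 2 h and 45.8%, 38.4% and 47.2% at 6 h. The 3 libraries of 0 h stood close together and at least 9.92 points above every later one. The difference was -15.2 points (SE 3.73, 95% interval -23.6 to -6.78). Along the cluster the separation was less even, since all 3 libraries of 0 h lay above all 6 later ones at 1 of the 105 positions. The Ikaros libraries had 26.8% to 57.6% at 0 h and 36.7% to 58.6% later, and the Control means were 50.1% at 12 h, 56.8% at 18 h and 47.1% at 24 h.

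At Slc31a2, a member of the copper transporter family, levels were 56.1%, 64.7% and 63.7% at 0 h, 50.7%, 29.7% and 38.7% at 2 h and 24.3%, 20.6% and 43.4% at 6 h. All 3 of 0 h lay above all 6 later libraries at 14 of the 18 positions used. The difference was -26.9 points (SE 6.93, 95% interval -42.6 to -11.3), and the Control means were 42.1% at 12 h, 46.2% at 18 h and 52.3% at 24 h. In the Ikaros series the mean was 37.6% at 0 h and 30.9% at 2 h and 6 h.

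**Figure D4:**
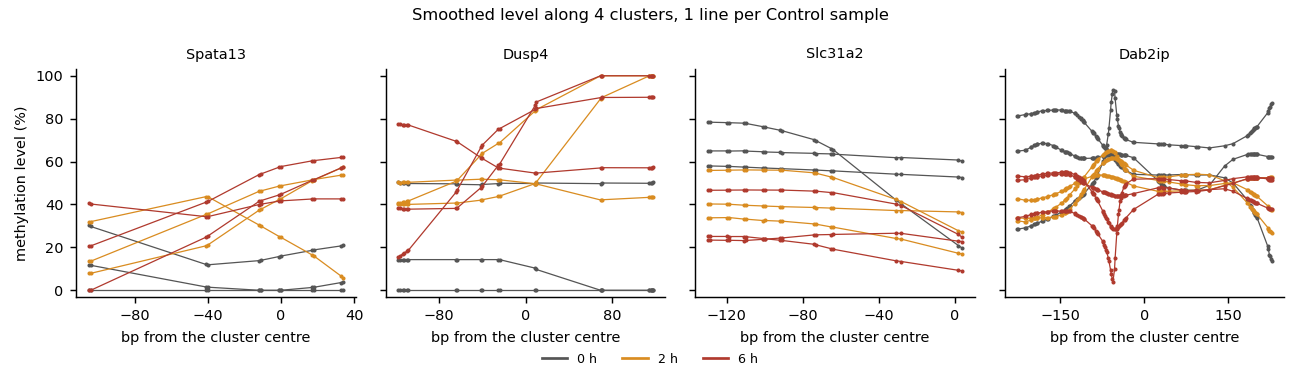
Smoothed methylation level (y axis, %) along 4 clusters against the distance from the cluster centre (x axis, bp), 1 line per Control library, grey for 0 h, orange for 2 h and red for 6 h, at positions with a value in all 9 libraries. At Slc31a2 the lines of 0 h lie on top over most of the length, at Dusp4 only 2 of 3 lie apart, and at Dab2ip the lines cross.

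The remaining 3 lay between genes, with means of 87.9% to 94.5% in the Ikaros 0 h libraries. The cluster 14927 bp from Cps1 (chr1:67107918-67108099), a gene of the urea cycle, lay wholly in repeat sequence and had 96.1%, 93.6% and 94.4% at 0 h and from 85.0% to 91.7% later. The cluster 103085 bp from Tgm3 (chr2:129908933-129909264), which encodes a transglutaminase of the skin, had 92.3%, 88.0% and 88.7% at 0 h and from 78.9% to 85.6% later. The cluster 1957 bp from Foxa2 (chr2:148048926-148049156), a gene for a transcription factor of the endoderm, had 98%, 99.8% and 96.4% at 0 h and from 87.0% to 95.3% later. It rested on only 9 of 25 listed positions. In each of the 3 the groups did not overlap. At 12 h, 18 h and 24 h the Control means were 91.4%, 88.8% and 86.3% at Cps1, 83.6%, 86.5% and 87.0% at Tgm3 and 93.3%, 94.3% and 91.0% at Foxa2. At Spr they were 30.9%, 39.9% and 56.8%, at Cnih4 and Nvl 3.99%, 14.6% and 6.96%, at Adgrl1 96.4%, 97.7% and 97.4% and at Tbx20 94.4%, 92.3% and 95.1%.

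**Figure D5:**
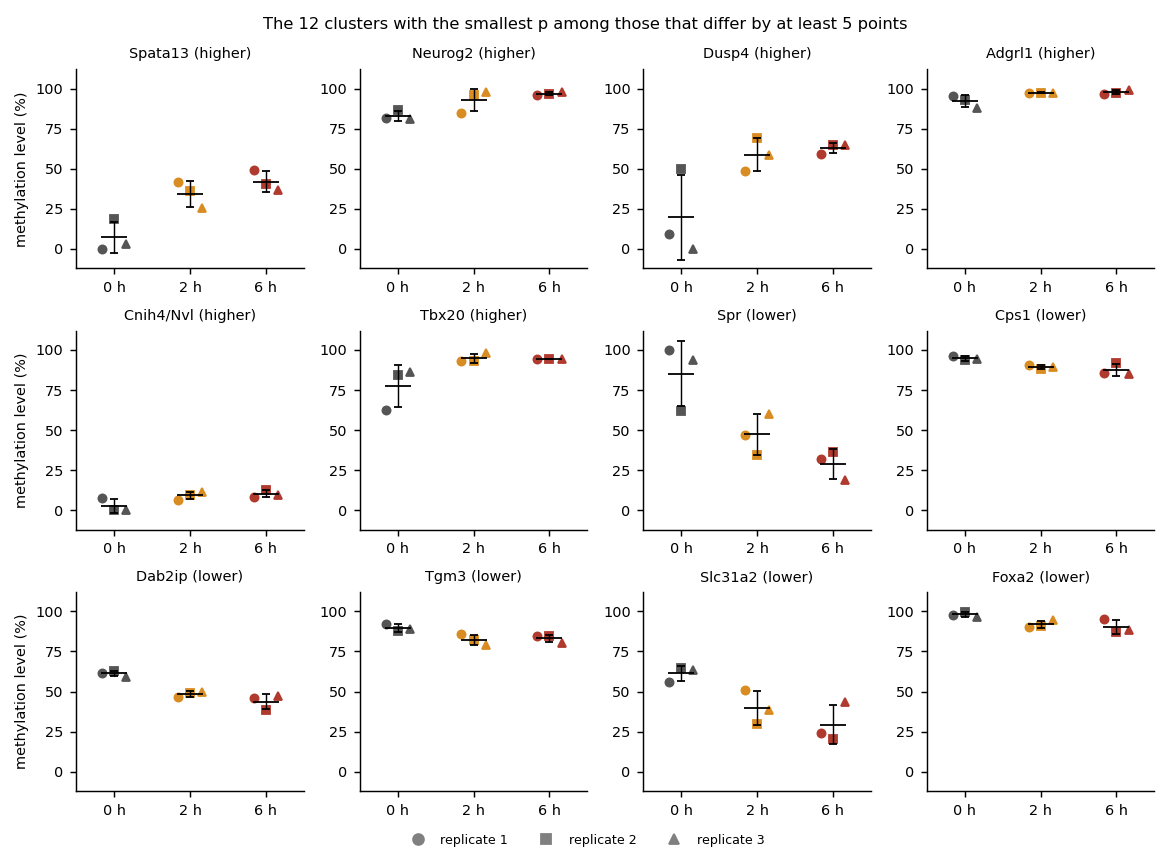
Methylation level (y axis, %) in each Control library at 0 h, 2 h and 6 h (x axis) of the 6 clusters higher and the 6 lower at the later times with the smallest p among those that differed by at least 5 points. Symbols mark the replicate, the line is the mean and the bar 1 SD of 3. The 0 h libraries are close together at Dab2ip (59.4% to 62.8%) and far apart at Dusp4 (0% to 49.9%), and no cluster passed the adjusted threshold.

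The comparison was repeated without Control 0 h replicate 1. With the levels, 2 clusters passed in limma (0.0118%), both higher later. One lay at Cbln1, a gene for a synaptic organiser (chr8:87472753-87473149), with 87.9% in both remaining libraries of 0 h and from 95.7% to 99% later (adjusted p = 0.0304 in limma). The omitted library had 99% there, within the range of the later ones. In both clusters it lay inside that range or beyond it, and with it neither passed.

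Leaving out Control 0 h replicate 2 instead gave 8 clusters (0.047%), 5 higher and 3 lower, and leaving out Control 0 h replicate 3 gave 0 clusters in limma. In all 8, replicate 2 lay inside the range of the later libraries or beyond it. At Hlcs, which encodes the ligase that attaches biotin to carboxylases, the libraries of 0 h had 52.9%, 3.14% and 50%, and the later ones from 0.520% to 13.8% (adjusted p = 0.0130 in limma without replicate 2). On the M-value scale, the log2 ratio of methylated to unmethylated fraction, which stretches the ends of the range, 30 clusters (0.176%) passed without Control 0 h replicate 1, 28 of them lower. This combination was chosen after the data were seen. The study's methods set levels below 1% to 1% before this scale, so positions below 1% share the same M-value. Of the 30, 28 started under 10%, 29 lay at promoters, and in 27 all 6 later libraries lay under 5%. Control 0 h replicate 1 lay inside or beyond the range of the later libraries in 20 of them. At Bphl, a gene for a serine hydrolase, levels were 0.280%, 1.19% and 1.33% at 0 h and from 0% to 0.255% later. At Smc5, of a complex in DNA repair, they were 0.595%, 1.98% and 1.67% at 0 h and from 0.0681% to 0.673% later. Rftn1, which encodes a protein of lipid rafts, had 1.59%, 2.33% and 1.54% at 0 h and from 0% to 0.979% later. With all 9 libraries on the M-value scale 0 clusters passed in limma, and 1085 had an unadjusted p under 0.05.

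Gene lists that bear on the ligand were followed at the clusters within 1000 bp of their starts, none of which passed in limma. Of 20 estrogen receptors and coregulators, 19 had a cluster, 36 in all, with a median difference of -0.140 percentage points against -0.0721 over all clusters. Of the 36, 4 were lower at an unadjusted p under 0.05 (11.1%) and 0 were higher, where all clusters had 4.25% and 1.81%. In lists of this size a few clusters make such a share, and no test of the lists was made. Esr1 and Esr2, the receptors that bind estrogen, were highly methylated at their starts, with 89.5% to 99.7% and 70.8% to 91.0% over the 9 libraries. Esrrg, an orphan receptor, had the largest difference, 8.48 points (SE 5.65), with 28.6%, 29.4% and 42.4% at 0 h and from 28% to 49.5% later, which overlapped. Without Control 0 h replicate 3 that difference was 12.9 points.

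Of 20 genes known to respond to estrogen, 16 had 30 clusters with a median difference of 0.118 points, which turned negative without Control 0 h replicate 1. Of these clusters, 3 were lower (10%) and 0 higher at an unadjusted p under 0.05, against 4.25% and 1.81% of all clusters. Bcl2, which blocks cell death, held both the largest difference and the smallest p. One of its clusters had 61.0%, 88.0% and 78% at 0 h and from 62.8% to 90.9% later, which overlapped, and its difference of 8.30 points was 0.958 without Control 0 h replicate 1, 14.5 without Control 0 h replicate 2 and 12.5 without Control 2 h replicate 3. Another had 9.67%, 5.81% and 13.1% at 0 h and from 3.94% to 6.24% later, a difference of -4.76 points (SE 1.32) that was -2.96 without Control 0 h replicate 3, and where Control 0 h replicate 2 fell among the later libraries. Of 18 genes of 4-OHT and estrogen metabolism, 5 had a cluster, with a median difference of -1.44 points and 0 at an unadjusted p under 0.05. That median was the value at Cyp1a1, and it was -0.685 points without Control 0 h replicate 1. Cyp1a1, an oxidase of foreign compounds, had 93.4% to 96.2% at 0 h and 91.9% to 94.6% later. The transporter gene Abcc1 had 40.3% to 56.8% at 0 h and 28.9% to 56.6% later.

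Of 18 immediate early and stress response genes, 16 had 29 clusters, 24 of them under 10% at the start. The median difference was -0.0521 points, with 1 cluster higher and 1 lower at an unadjusted p under 0.05 (3.45% each, against 1.81% and 4.25% of all clusters). Fos had 1.81%, 3.25% and 2.18% at 0 h and from 0% to 1.60% later at one cluster, so the groups did not overlap. The other Fos cluster went the opposite way, with 10.1%, 13.3% and 11.3% at 0 h and from 11.8% to 19.5% later, which overlapped (difference 3.34 points, SE 1.68). Egr2, also a transcription factor gene, had 88.7%, 93.7% and 90.5% at 0 h and from 92.9% to 97.5% later in its most upstream cluster.

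Of 14 genes that write, read or erase DNA methylation, 11 had 19 clusters with a median difference of -0.00662 points, or of 0.0472 without Control 0 h replicate 1. Of these clusters, 2 were higher (10.5%) and 1 lower (5.26%) at an unadjusted p under 0.05, against 1.81% and 4.25% of all clusters. Dnmt3a had 0.509%, 0.420% and 0.362% at 0 h and from 0.490% to 1.32% later at its first cluster. Its other clusters differed by -0.337 and -0.00683 points. Dnmt3b had 2.66%, 3.79% and 4.58% at 0 h and from 4.32% to 5.51% later at one cluster (difference 1.17 points), and differed by 0.332 points at the other. A cluster of Tet3 had 97.8%, 99.5% and 99.4% at 0 h and from 95.8% to 98.2% later. The maintenance enzyme gene Dnmt1 had 0% to 0.70% in all 9 libraries.

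Imprinted genes carry methylation that differs between the maternal and the paternal copy. Of 20, 16 had 28 clusters, with a median difference of -0.400 points, which lay between -0.277 and -0.177 without Control 0 h replicate 1. At an unadjusted p under 0.05, 1 cluster was higher and 1 lower (3.57% each, against 1.81% and 4.25% of all clusters). Some of the 28 had intermediate levels. At Kcnq1ot1 they were 58.4%, 41.5% and 48.3% at 0 h and from 26.9% to 50.5% later, a difference of -12.9 points (SE 6.18), or -8.40 without Control 0 h replicate 1. At the Gnas cluster with the largest difference of the list they were 20.1%, 40.9% and 33.0% at 0 h and from 35.1% to 56.2% later, 13.1 points higher (SE 5.80), but 7.47 points without Control 0 h replicate 1. The smallest p of the list was at Nnat, with 100%, 97.9% and 99.7% at 0 h and from 95% to 98.2% later. Many of the others, at Igf2r, Grb10, Plagl1, Peg10 and Dlk1, were at 92.1% or more in all 9 libraries.

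Clusters at marker genes of the lineage and of other cell types were followed in the same way. Of 6 B lineage markers with 8 clusters, 0 had an unadjusted p under 0.05, against 6.06% of all clusters, and so few clusters can show little. Ikzf3, a relative of Ikaros, had the largest difference, with 19.4%, 25% and 23.9% at 0 h and from 20.8% to 28% later. Among 5 clusters of T cell markers 1 was lower at an unadjusted p under 0.05 (20% of the 5, against 4.25% of all clusters), at Gata3, with 98.4%, 99.7% and 99.3% at 0 h and from 95.4% to 98.3% later. Clusters of myeloid, erythroid and muscle markers numbered 3, 2 and 2, and 0 had an unadjusted p under 0.05. At the erythroid factor gene Klf1, Control 0 h replicate 1 had 7.05% and the other 8 libraries 0.474% to 1.66%.

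The genes the study singles out had 13 clusters at 9 of 11 genes, and 0 had an unadjusted p under 0.05, against 6.06% of all clusters. Myc had 0.193% to 0.862% over the 9 libraries, the glycolysis genes Hk2 and Ldha 0% to 1.15% and 0% to 0.759%, and the amino acid transporter gene Slc7a5 0% to 0.444%. Both clusters of Foxo1 had 0% to 1.04%, and those of the DNA ligase gene Lig4 0% to 0.944%.

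In the Ikaros series, 0 of 16973 clusters passed in limma for 2 h and 6 h against 0 h, and 868 had an unadjusted p under 0.05. Whether the change differed between the series was tested as an interaction, where 0 clusters (0%) passed and 976 had an unadjusted p under 0.05. Among the 12 named clusters the smallest adjusted p of the interaction was 0.667 in limma, at Spata13 and Tbx20.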

How the data were processed

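RRBS libraries of 3 Control replicates each at 0 h, 2 h and 6 h were compared, with the 9 Ikaros libraries of the same times beside them. The authors trimmed the reads with Trim Galore, mapped them with Bismark 0.10.1 and Bowtie2 to GRCm38 (mm10) and used BiSeq to form CpG clusters, to cap very high coverage and to smooth. The values the authors deposited are a smoothed fraction of 0 to 1 per position, printed here as a percent, and M-values on a log2 scale from levels kept off 0 and 1. No coverage per position is given with these values, so no coverage minimum was set and precision rests on how far replicates differ. The study's methods describe replicates as repeats of the time course in different batches, with 0 h obtained separately.

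Cluster levels were means over the 945595 of 1116417 positions with a value in all 9 libraries. The levels were fitted in limma 3.58.1 (R 4.3.3, lmFit and eBayes with trend, no block) with Benjamini-Hochberg adjustment at 0.05 over all clusters tested. Of 17009 clusters, 41 had the value 0 in all 9 libraries and stayed in the fit. Mean levels were compared by two-sided exact permutation tests over libraries and adjusted over 10 tests, in scipy 1.17.1 under Python 3.11.15 (pandas 2.3.3, numpy 2.4.6). The limma steps were tested on simulated data. Context came from GENCODE M21, with a promoter cluster within 1000 bp of a transcription start of a protein-coding or long non-coding gene. Of the listed positions, 1116322 lay on a CG of GRCm38.p6.

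Replicates 1 and 3 share batches 1 and 4 at all times per the labels, whereas replicate 2 is of batch 2 at 0 h and of batch 3 later, so a batch block with batches 2 and 3 merged equals the replicate block, and with them apart only batches 1 and 4 compare the times. Named clusters were the 6 with the smallest p in each direction that differed by at least 5 points, the list member with the largest difference and that with the smallest p, and genes the study names. Other genes named from the lists, or among calls made without a library, were chosen after their values were seen. The comparison, its lists and its members were chosen with earlier results of these data known. Alternatives were the M-values, no trend, a time factor, blocks, batches, filters, other classes and each library left out. A few members that these rules would name are not reported here.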

Additional observations from a re-analysis of the deposited data

Results flagged for a closer look

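In 35 groups of 6 later Control libraries, which were 10 mean levels and 25 named clusters, 5 had a library far from the others by Dixon's ratio of its gap to the range. Chance flags about 1 in 20 groups where the groups are independent. Here the mean levels share clusters and 12 of the clusters were chosen by p, so no excess can be read from the 5. At Neurog2 (ratio 0.859), Control 2 h replicate 1 had 84.9% and the other 5 had 96.1% to 97.9%. At Adgrl1 (ratio 0.711), Control 6 h replicate 3 had 99.2% and the others 96.9% to 97.5%. At Tbx20 (ratio 0.699), Control 2 h replicate 3 had 98.1% and the others 93.1% to 94.6%. At Dab2ip (ratio 0.671), Control 6 h replicate 2 had 38.4% and the others 45.8% to 49.4%. At Slc7a5 (ratio 0.752), Control 2 h replicate 3 had 0.444% and the others 0.0721% to 0.164%. These libraries differ from cluster to cluster, with Control 2 h replicate 3 far from the others at 2 of them.

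At the cluster near Tgm3, all 6 later Control libraries lay below the Control mean of 0 h (89.7%), and all 6 later Ikaros libraries, from 88.5% to 92.6%, lay above the Ikaros mean of 0 h (87.9%). That mean rests on Ikaros 0 h replicate 1 (80.7%), since the other two of 0 h had 91.1% and 91.8%. Without it the Ikaros mean of 0 h was 91.5%, above the later mean of 90.3%, and only 2 of the 6 later Ikaros libraries lay above it. The change in the Control series minus that in the Ikaros series was -9.44 percentage points. The difference between the series was tested as an interaction in limma and did not pass (adjusted p = 0.735).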

How the results depend on the processing

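Adjusted p-values of the mean levels could hardly pass in this design, and could not without a 0 h library, so they say nothing about stability. With replicate numbers as a block, the difference of the low clusters cannot change, since each number has 1 library at each time. It was again -0.104 percentage points (exact permutation test, p = 0.0370, the smallest the test can give, adjusted p = 0.370). With this block 0 clusters passed in limma and no call of a cluster changed. Deviations of same-numbered libraries correlated from -0.117 to 0.107, and 2 of 9 libraries correlated best with their own number. In batches 1 and 4 alone, the differences over 90% (0.0389), in coding exons (0.0388) and in other exons (0.108) turned positive, those over all clusters (-0.00975), in promoters (-0.0322), between genes (-0.0230) and at 10 to 50% (-0.489) shrank by over 1.5 times, and those at 50 to 90% (0.534) and in introns (0.375) grew as much. With positions complete without Control 0 h replicate 1, those at 50 to 90% (-0.224) and in introns (-0.0749) turned negative and 1 cluster passed. With classes from Control 0 h the 10 to 50% class turned positive (0.650), and so did the median level of all clusters in each library, compared between the times in place of the mean (0.734). M-values without Control 0 h replicate 1 gave 30 calls. Both last choices were made after the data were seen.

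Leaving out each library in turn gave ranges of -0.162 to -0.0191 percentage points for all clusters, -0.127 to -0.0735 under 10%, -1.04 to -0.423 at 10 to 50%, -0.195 to 0.631 at 50 to 90%, -0.116 to 0.0149 over 90%, -0.173 to 0.00511 in coding exons, -0.510 to 0.158 in other exons, 0.00544 to 0.393 in introns, -0.152 to -0.0406 in promoters and -0.273 to -0.0460 between genes. Of the 10 mean levels, that under 10% was the one that no single library moved by over 1.5 times. The promoter value was lowest in size without Control 0 h replicate 2, and that between genes went to -0.273 without replicate 1, -0.0474 without replicate 2 and -0.0460 without replicate 3 of 0 h. Calls ranged from 0 to 8 for the later times together, from 0 to 1 at 2 h, at 6 h and for 6 h against 2 h, and from 0 to 11 for the difference between the series. The 8 arose without Control 0 h replicate 2, as did the 11. The cause was not tested. Coverage per position is not given with the levels, and Control 0 h replicate 1 has the most empty positions.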

Other observations

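On the X chromosome, 354 clusters had a value, with a median difference of -0.0365 percentage points, and 0 passed in limma, with 28 (7.91%) at an unadjusted p under 0.05, against 6.06% of all clusters. Of the 41 clusters with a single value in all 9 Control libraries, all were at 0%, and none was at 100%.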
